A study of Mus musculus with 2 samples.

Results

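Hepatocyte-like droplets are the droplets of 2 liver single-cell libraries whose mRNA was rich in hepatocyte transcripts. They were chosen by measured values: Alb, Apoa1, Fabp1, Apoc1 and Ttr together made up at least 500 of every 10000 UMIs (unique molecular identifiers, 1 per captured mRNA molecule), the endothelial genes Kdr, Ptprb and Flt4 stayed under 25 per 10000, Cd79a, Cd3e, Cd5l and Epcam summed to at most 2 UMIs, and Hba-a1 and Hbb-bs stayed under 300 per 10000. Of 13603 droplets kept (under 10% mitochondrial UMIs and over 200 genes), 513 met the rule. The Q library held 500 of them among 7471 kept droplets, or 6.69% (exact binomial 95% interval 6.14 to 7.28), and the F library 13 of 6132, or 0.212% (0.113 to 0.362). The limit on Cd79a, Cd3e, Cd5l and Epcam was failed by 13 of the 27 kept F droplets with 500 or more and by 34 of 635 in Q, and the endothelial limit by 2 and 96.

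Q was made from the liver non-parenchymal cells of a C57BL/6 male mouse given olive oil (quiescent state), and F from those of a C57BL/6 male mouse with fibrosis caused by CCl4. Injections were intraperitoneal, 2 a week for 6 weeks, and cells were taken 48 h after the last one. The series text gives the mice as 8 weeks old. Hepatocytes were depleted on purpose by low-speed centrifugation, so the shares above describe what passed this step and not the liver. Each group is 1 mouse and 1 library. No difference between Q and F could therefore be tested. Intervals here are exact Poisson, binomial or conditional 95% intervals that cover counting error only, and a gene is said to have risen or fallen where its level in F was at least 2 times, or at most 0.5 times, its level in Q.

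Hepatocytes make most plasma proteins, clear ammonia through the urea cycle, build bile acids, and detoxify drugs with cytochrome P450 and conjugating enzymes. Their work is divided along the blood stream of the lobule: periportal cells favour gluconeogenesis and urea synthesis, and pericentral cells favour P450 metabolism and glutamine synthesis. CCl4 is turned into a reactive radical mainly by Cyp2e1, a P450 enzyme of pericentral cells, and injures those cells first.

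The kept and discarded droplets together held 44062632 UMIs in Q (median 4144.5 per droplet) and 53288463 in F (median 5619). Barcodes shared by both libraries numbered 15, of which 2 were hepatocyte-like in Q and 0 in F. The doublet caller Scrublet marked 1 droplet in each library, too few to serve as a doublet filter, and none was removed for it.

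Cells that burst during digestion leave mRNA in the suspension, and droplets of any cell type capture some of it. Lymphoid cells served as the reference for free hepatocyte RNA. The median Q lymphoid cell (1352 cells, median 3448 UMIs) carried 68 UMIs of the 5 rule genes and 189.5 UMIs of 285 other hepatocyte genes. The median F lymphoid cell (262 cells, median 2373.5 UMIs) carried 4 and 34. Per 10000 UMIs the 285 genes stood at 429 (427 to 430) in Q and 129 (127 to 132) in F lymphoid cells, a ratio of F over Q of 0.302 (0.296 to 0.308), and the 5 rule genes at 151 and 17.1, a ratio of 0.114. The 285 genes are not all specific to hepatocytes. Apoe, 1 of them, stood at 26.6 in Q and 23.9 in F lymphoid cells, while Alb stood at 79.5 and 10.5. The 285-gene level, and the limit set on it below, can therefore include RNA of other cells, and that part was not tested. A Q droplet that held 68 free UMIs and fewer than 1360 UMIs in all would reach the limit of 500 per 10000 without hepatocyte RNA of its own. Of 604 kept Q droplets under that total 315 reached the limit and 242 were members. In F the matching total was 80 UMIs, and 0 members lay under it.

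A second limit was therefore set after these values were seen, at the 99th percentile of lymphoid cells in UMIs of the 285 genes per droplet: 487.9 in Q and 85.07 in F. It was passed by 125 of 500 Q members (25%, 21.3 to 29.0) and by 13 of 13 F members. The 375 other Q members had a median of 1250 UMIs, with 203 UMIs of the 285 genes and 75 of the rule genes, close to the free load of a lymphoid cell. Because the second limit is a number of UMIs per droplet, depth largely fixes which members pass it: 0 of 346 Q members with under 2000 UMIs passed the second limit, 32 of 61 with 2000 to 5000 did, and 93 of 93 with 5000 or more did. Among kept droplets with at least 5000 UMIs, far above the total at which the median free load reaches the limit of the rule, hepatocyte-like droplets made up 93 of 3183 in Q (2.92%, 2.36 to 3.57) and 6 of 3299 in F (0.182%, 0.0668 to 0.395). In Q, the 137 members that only just met the rule (500 to 550 per 10000) held 8 droplets above the free-RNA limit, and the 130 droplets just outside (450 to 500) held 2. In F these were 3 of 3 and 4 of 4 droplets.

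**Figure D1:**
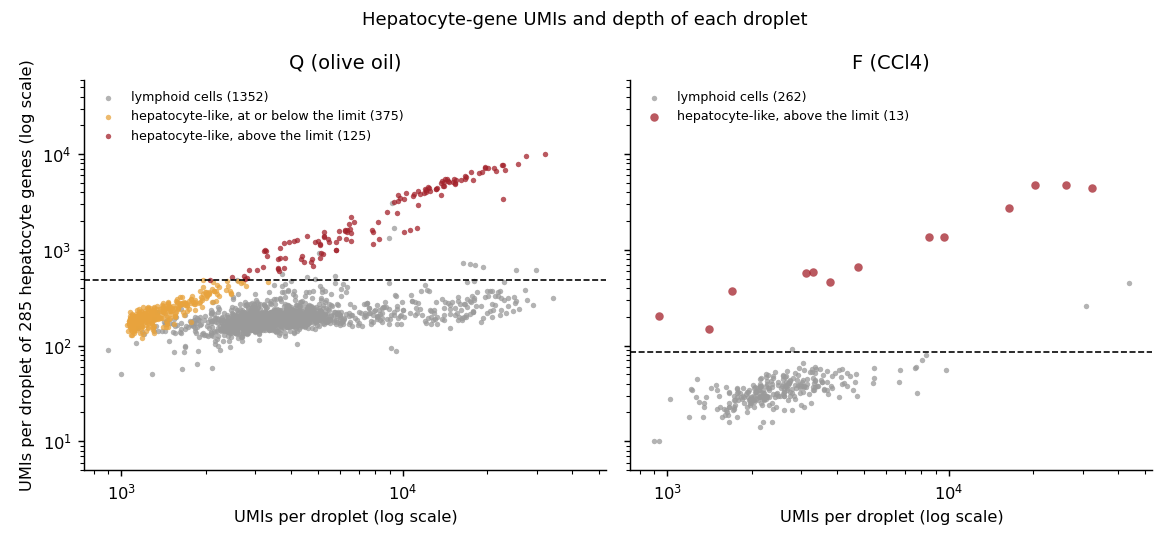
Total UMIs (x axis, log scale) and UMIs of 285 hepatocyte genes (y axis, log scale) in each hepatocyte-like droplet and each lymphoid cell of Q and F. The dashed lines mark the 99th percentile of lymphoid cells, 487.9 UMIs in Q and 85.07 in F. In Q 375 members lie at or under the line, and in F 0 of 13 do.

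The mixture of hepatocyte transcripts in both kinds of Q member is given as a description, since these genes set the limit between them. In the 375 droplets at or under the limit, the genes of the hepatocyte lists kept nearly the proportions of the free RNA: over 231 genes the ratio to lymphoid cells had a median of 3.80 and its quartiles differed 1.24-fold. In the 125 droplets above it the median ratio was 7.32 over 255 genes and the quartiles differed 2.66-fold. The log2 levels correlated with those of lymphoid cells at r = 0.979 and r = 0.928, as a description across genes that share libraries and depth. Genes furthest above free RNA in the 125 droplets were Cyp8b1, which shapes the bile acid pool (18.5 times its level in lymphoid cells), the fibrinogen chain Fgb (17.6 times), and the protease inhibitor Mug1 (17.2 times). Of all 2195 genes tested in that comparison 26.7% were at least 2 times higher.

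**Figure D2:**
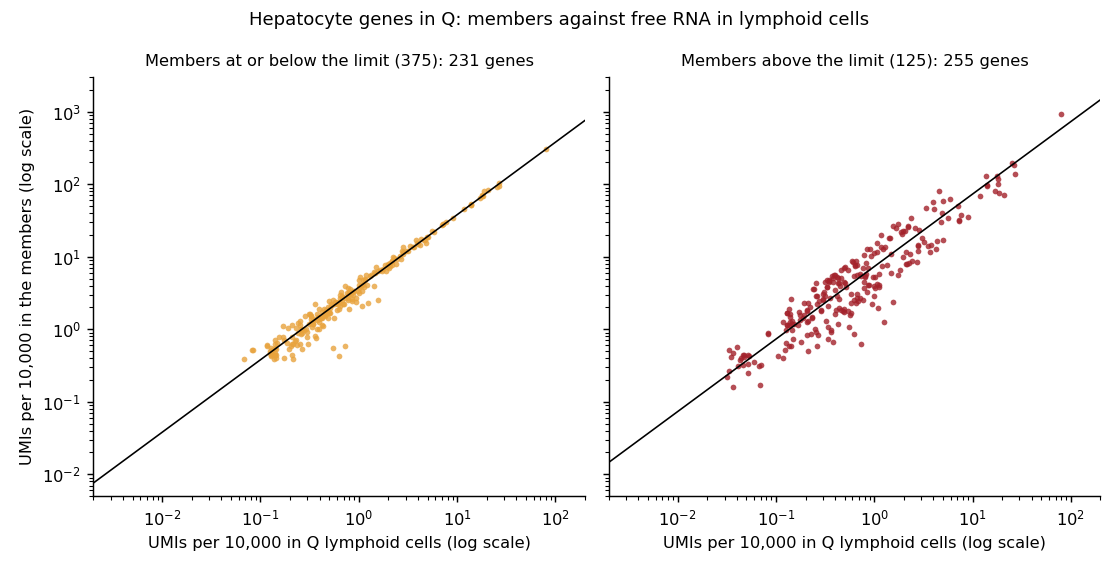
UMIs per 10000 of hepatocyte genes in Q lymphoid cells (x axis, log scale) against the 375 members at or under the free-RNA limit (left, 231 genes) and the 125 above it (right, 255 genes). The line is the median ratio, 3.80 on the left and 7.32 on the right, and the points scatter more widely around it on the right.

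Of the hepatocyte markers, Car3 (carbonic anhydrase 3) was used neither by the rule nor by the free-RNA limit. In the 125 Q droplets it stood at 4.90 times its level in Q lymphoid cells, which was 4.41 UMIs per 10000. Cyp2e1, which the rule did not use but which is 1 of the 285 genes behind the limit, stood at 7.38 times its lymphoid level of 1.49, as a description. In the 13 F droplets Cyp2e1 and Car3 stood at 4.46 and 5.59 against 0.142 and 0.220 in F lymphoid cells. Of all 2983 genes tested in F members against F lymphoid cells 29.8% were at least 2 times higher. Of the 375 remaining Q members the label could not be said to hold as a group. There 9 endothelial markers (Stab2, Clec4g and others) summed to 29.7 per 10000, 9 macrophage markers to 18.0 and 7 lymphoid markers to 31.0, and 51, 20 and 53 of the droplets reached 50 per 10000. In the 125 droplets these sums were 4.67, 2.12 and 4.75, with 1, 0 and 2 droplets at 50 or more. In F they were 4.76, 9.29 and 3.25, with 0 of 13 droplets at 50 or more. F lymphoid cells, as carriers of free RNA, had 17.7 for the endothelial and 18.5 for the macrophage markers. The 9 mesenchymal markers, which rise in fibrosis, summed to 0.790 in the 125 Q droplets, 3.78 in F members and 30.0 in F lymphoid cells, and their part in the results below was not tested.

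Transcripts of secreted proteins filled the Q members. Counts here are of molecules caught at their 3′ end, so levels of different genes are not scaled by length. Albumin led with 750 UMIs per 10000, followed by the major urinary protein Mup3 (166), the apolipoproteins Apoe (158) and Apoa2 (127), the fatty acid desaturase Scd1 (112), the protease inhibitor Serpina3k (108), Mup20 (104), the thyroxine carrier Ttr (91.6), Apoa1 (84.8) and transferrin, Trf (82.1). F kept 5 of these names among its 10 most abundant genes: Alb (262), Ttr (120), Apoe (85.3), Apoa1 (84.3) and Trf (74.0). The other 5 were Apoc1 (96.7), Fabp1 (74.6), the glutathione transferase Gstm1 (119), and the ferritin chains Fth1 (119) and Ftl1 (109). Alb, Ttr, Apoa1, Apoc1 and Fabp1 are the 5 rule genes, so their place near the top is set by the rule.

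Zonation divided the 125 Q droplets above the limit. The periportal enzyme Cyp2f2 reached 10 per 10000 in 66 of them, glutamine synthetase (Glul), which marks the cells next to the central vein, in 9, both in 0 and neither in 50. These classes were drawn after the values were seen, so the genes that define them are no finding and the others are given as a description. Among other genes, ornithine aminotransferase (Oat), a partner of Glul in the last pericentral cells, stood at 86.3 in the Glul droplets, 0.304 in the Cyp2f2 droplets and 2.45 in those with neither. Rgn (regucalcin) followed the same order at 31.2, 1.39 and 11.2. Cyp2e1 was at 26.7 and 29.7 in the Glul and neither droplets and at 1.73 in the Cyp2f2 droplets. Carbamoyl phosphate synthetase (Cps1), the entry enzyme of the urea cycle, ran the other way at 1.45 in the Glul droplets, 16.6 in those with neither and 30.2 in the Cyp2f2 droplets. Albumin was 1193 in the Cyp2f2, 479 in the neither and 107 in the Glul droplets, while Fabp1, the liver fatty acid binding protein, was 43.9, 106 and 336. Both are rule genes with a required sum, so a class low in one can enter only where another is high, and these values are set in part by the rule. Depth ran with the classes too, with median totals of 12829.5, 5627.5 and 4450 UMIs, and its part in these differences was not tested.

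Summed over members, 19 pericentral genes over 14 periportal genes gave a ratio of 0.396 (0.385 to 0.407) in Q and 1.04 (0.919 to 1.17) in F. In lymphoid cells the same ratio was 0.301 (0.291 to 0.311) in Q and 0.868 (0.763 to 0.986) in F, but 53.4% of the F pericentral UMIs there were of Glul, which was higher in F than in Q lymphoid cells (3.13 against 1.02 per 10000) while Cyp2e1 and Alb were lower. Without Glul the lymphoid ratios were 0.255 (0.246 to 0.265) and 0.404 (0.343 to 0.475), and those of members 0.344 and 0.977. The F value rests on 547 pericentral and 527 periportal UMIs. The deepest F droplet supplied 204 of the 547, and without it the ratio was 0.719. At a mitochondrial limit of 5% the ratio was 2.15 in F and 0.782 in Q. Without members under 1% mitochondrial UMIs it was 0.611 in F and 0.396 in Q. Droplet by droplet, the pericentral share of these UMIs was 0% at the lowest, 8.33% at the median and 97.7% at the highest of the 125 Q droplets, with 39 of them at 50% or more (31.2%, 23.2 to 40.1). Of the 13 F droplets 10 had the 20 UMIs needed, their shares ran from 4.41% over a median of 73.9% to 93.9%, and 7 were at 50% or more (70%, 34.8 to 93.3). The F range lay within the Q range.

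**Figure D3:**
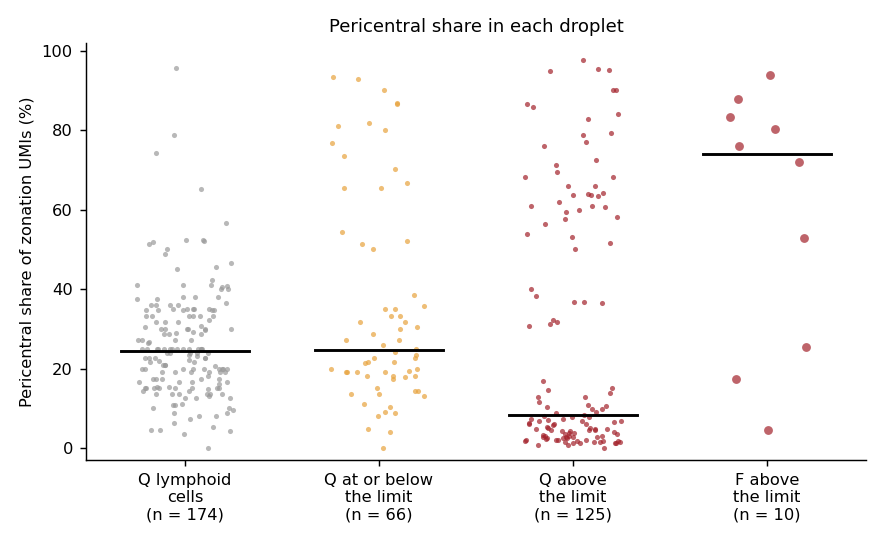
Pericentral share of all zonation UMIs (y axis, percent) in each droplet with at least 20 such UMIs, for Q lymphoid cells (free RNA), Q members at or under and above the free-RNA limit, and F members. Bars are medians, 24.4%, 24.6%, 8.33% and 73.9% from left to right, and the 125 Q members above the limit fall into a low and a high group.

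Across all genes, 1842 were at 1 UMI per 10000 or more in the members of either library. Of these 642 (34.9%) were at least 2 times higher in F and 269 (14.6%) at most 0.5 times as high. The median log2 ratio of F over Q was not 0 but 0.63, and 0.84 with only the 125 Q droplets above the free-RNA limit. Medians of lists below are to be read against that shift. Unless another group is named, ratios below are of UMIs summed over all members of each library. Lowest, median and highest Q values below are of the 125 droplets above the free-RNA limit. The limit of 1 per 10000 in either library fixed part of these counts: 428 of the 642 were under 1 in Q, so that their F level alone brought them in, and 163 of the 269 were under 1 in F. Of the 955 genes at 1 or more in both, 22.4% were higher and 11.1% lower. With the 125 Q droplets 43.5% of 1815 genes were higher and 15.5% lower. The 285 hepatocyte genes outside the rule stood at 2606 per 10000 in Q members (2598 to 2614) and 1695 in F members (1673 to 1717), a ratio of 0.650 (0.642 to 0.659).

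**Figure D4:**
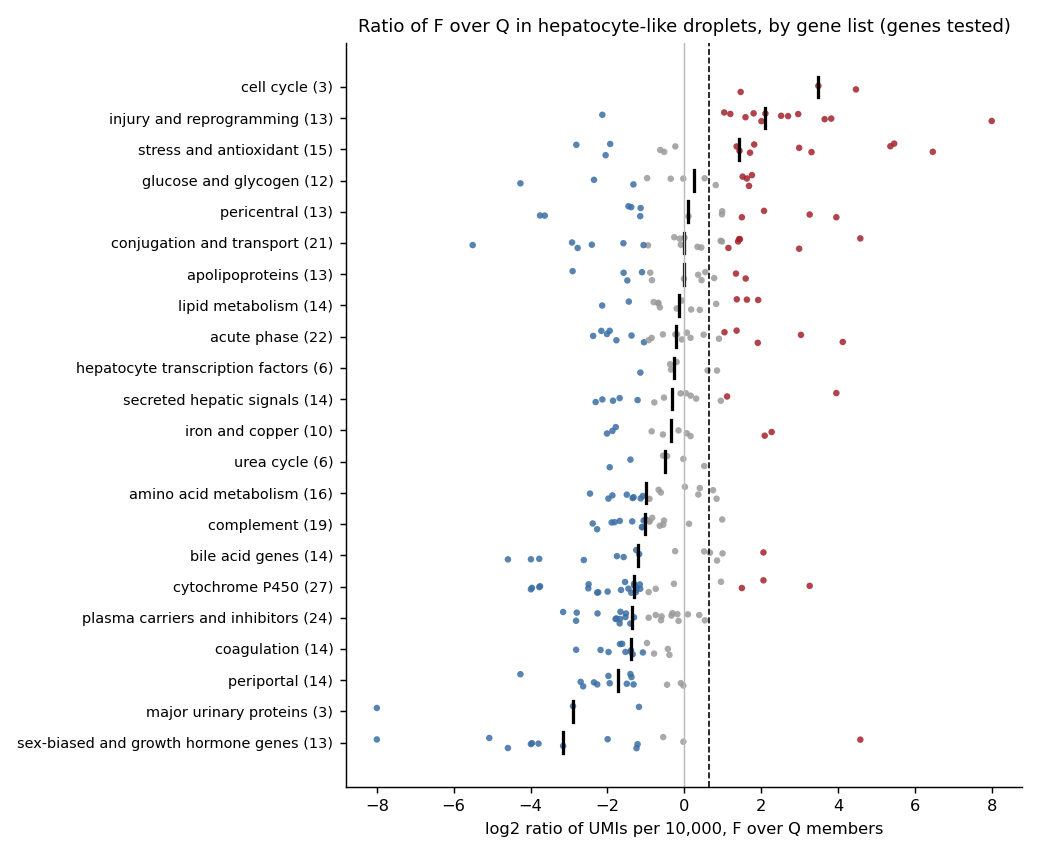
log2 ratio of F over Q members (x axis) of each gene tested, by list (y axis, number of genes tested in brackets), with red points at least 2 times higher, blue at most 0.5 times, and a bar at each list's median. The dashed line is the median of all 1842 genes, 0.63, and Mup21 and Hsd3b5, both at 0 UMIs in F, are drawn at the left edge and Afp at the right edge.

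Of 13 pericentral genes tested 4 rose in F and 6 fell, Cyp2e1 among the latter. Gulo, Lect2 and Cyp2a5, 3 of the 4, were tested through their F level alone and had to lie higher there, and 3 of the 6 through their Q level alone. Of the 6 genes at 1 or more in both libraries 1 rose and 3 fell. Cyp1a2 rose 2.83-fold (2.13 to 3.70), Gulo, which in mice completes vitamin C synthesis, 4.22-fold (2.97 to 5.89), and the hepatokine Lect2 15.5-fold (10.6 to 22.8). Cyp2a5 was 9.60 times higher, but 91.5% of its F UMIs came from the deepest droplet and the ratio without that droplet was 1.08. Cyp2e1, the enzyme that activates CCl4, was at 0.452 of Q (0.343 to 0.586) in summed UMIs, but at 0.711 as a mean over droplets and 0.520 without the 5% deepest members, both short of a fall. It was 0 at the lowest, 2.29 at the median and 21.0 at the highest of the 13 F droplets, and 0, 1.97 and 88.8 in the 125 Q droplets, so the medians lay close together and only Q droplets reached above 21.0. The same ratio in lymphoid cells was 0.0955. Glul was at 2.42 in F against 5.31 in Q and reached 9.62 at most in an F droplet. F lymphoid cells had 3.13. Oat was at 0.378 (5 UMIs) against 4.68. The periportal list held 11 genes that fell and 0 that rose among 14 tested (6 and 0 of the 9 at 1 or more in both), among them Cyp2f2 at 0.208 of Q (0.152 to 0.278), Cps1 at 0.261 (0.203 to 0.329) and phosphoenolpyruvate carboxykinase, Pck1, at 0.196 (0.143 to 0.262). Ass1, a urea cycle enzyme, was at 0.733 (0.610 to 0.875) and Hsd17b13 at 0.940 (0.703 to 1.23), and neither passed the fold limit. In F, 46 UMIs of Cyp2f2 were counted, 82.6% of them in 1 droplet.

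Plasma proteins were the most abundant list, at 1522 per 10000 in Q and 783 in F. Of 24 carriers and protease inhibitors tested, 13 fell and 0 rose, with a median log2 ratio of -1.36. Without Alb and Ttr, which the rule used, 12 of 22 fell and 0 rose, with a median of -1.36. Albumin stood at 45.6 at the lowest, 548 at the median and 1837 at the highest of the 125 Q droplets and at 53.2, 333 and 589 in the 13 F droplets. Its summed level was 0.349 of Q (0.338 to 0.361), as a description, since the rule used it. Every F droplet lay inside the Q range. The other inhibitors did not follow a single ratio: Mug1 stood at 0.142 (0.101 to 0.195) and Itih1 at 0.144, while Ahsg, which binds calcium and insulin receptors, was at 1.07 (0.987 to 1.15) and the retinol carrier Rbp4 at 1.45. Within the Serpina1 family of elastase inhibitors, Serpina1e was at 0.112 of Q and Serpina1a at 0.808. These paralogs share much of their sequence, so reads may be split unevenly between them. Coagulation factors fell in 10 of 14 tested genes and rose in 0 (median -1.39), with prothrombin, F2, at 0.326 (0.251 to 0.418) and antithrombin, Serpinc1, at 0.346 (0.279 to 0.424). Of the 10 falls 4 were of genes tested through their Q level alone. Of the 8 coagulation genes at 1 or more in both libraries 6 fell and 0 rose, where 11.1% of all such genes fell. Complement fell in 10 of 19 and rose in 0 (median -1.01), and of the 15 at 1 or more in both libraries 9 fell. The central component C3 was at 0.534 (0.467 to 0.609) over all members, just short of the limit. Against the 125 Q droplets 12 of 14 coagulation genes (median -1.73) and 14 of 19 complement genes (median -1.31) fell. This is a description, since these genes are part of the list that set the free-RNA limit.

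The window before the start of Alb is shown because albumin is the transcript that defines these droplets, and that of Afp because this fetal relative of albumin, its neighbour on chromosome 5, was read in 3 F droplets. Both come from RefSeq on GRCm38.p6, plus strand, 250 bases up to the start site. They lie at chr5:90460620-90460869 (Alb) and chr5:90490464-90490713 (Afp). Capitals mark GTTAAT or its reverse complement ATTAAC, the core of the site that the hepatocyte factor HNF1 binds.
Alb: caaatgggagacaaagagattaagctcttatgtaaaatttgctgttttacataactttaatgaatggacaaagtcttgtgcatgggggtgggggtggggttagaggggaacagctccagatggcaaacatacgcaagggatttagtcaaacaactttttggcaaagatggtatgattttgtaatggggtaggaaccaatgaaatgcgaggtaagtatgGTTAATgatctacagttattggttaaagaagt
Afp: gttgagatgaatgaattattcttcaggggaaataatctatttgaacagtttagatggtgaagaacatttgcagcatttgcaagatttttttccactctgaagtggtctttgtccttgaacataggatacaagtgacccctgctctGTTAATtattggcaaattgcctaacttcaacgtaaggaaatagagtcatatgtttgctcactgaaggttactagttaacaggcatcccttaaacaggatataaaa
Each window holds 1 match, which begins 32 bases before the start of Alb and 105 before that of Afp. Of all 32851 mouse promoter windows of this length 6.43% hold the motif on either strand. Among carriers and inhibitors 10 of the 20 genes with a window hold it, 5 of them Serpina1 paralogs. A match is only a run of letters, and none of these data measure binding.

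Genes under growth hormone and sex control had the lowest median of the lists, -3.15. Of 13 tested 10 fell and 1 rose (Gstp1), but only 5 were at 1 or more in both libraries, of which 4 fell. Major urinary proteins, pheromone carriers that male livers make in bulk, are the best known of this kind. Mup3 stood at 12.2 at the lowest, 177 at the median and 484 at the highest of the 125 Q droplets, and at 0, 14.2 and 72.2 in F. Its ratio was 0.134 (0.119 to 0.151), and the highest F droplet lay below the Q median. Mup20 was at 0.442 (0.407 to 0.479). For Mup21 634 UMIs were counted in Q and 0 in F, which puts Q at least 12.9-fold higher by the exact interval (15.9 times the level of a floor of 3 UMIs over all F members). Many Mup genes are near-identical copies, and individual Mup values are uncertain. Hsd3b5, a male-specific steroid dehydrogenase, had 200 UMIs in Q and 0 in F (at least 4.05-fold higher in Q by the exact interval, and 5.02 times the floor). The organic anion carrier Slco1a1 was at 0.0415 of Q (0.00502 to 0.151, 2 F UMIs), the fatty acid elongase Elovl3 at 0.0297 (1 F UMI), and Igfals, which holds IGF1 in the blood, at 0.0721 (1 F UMI). Igf1 itself was at 0.431 (0.306 to 0.590). Egfr, at 0.0670 (0.0182 to 0.172), the arginine carrier Slc7a2, at 0.0371 (0.00764 to 0.109), and the carboxylesterase Ces3b, at 0.0220 (0.000556 to 0.123), were also among the 12 lowest ratios of genes whose ratio differed at least 2-fold from that in lymphoid cells, on 4, 3 and 1 F UMIs, the last in the deepest droplet. So were Cd52 and Hook3, on 1 F UMI each. Cd52 is a lymphocyte surface gene, with 15.3 per 10000 in Q lymphoid cells against 1.25 in Q members.

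Of 27 P450 genes tested 20 fell and 3 rose, with a median of -1.31, and of the 13 at 1 or more in both libraries 10 fell and 1 rose. Those that fell came from the Cyp2c, 2d, 3a and 4a families alike, from Cyp3a11, the main steroid and drug hydroxylase, at 0.406 (0.332 to 0.490) to the fatty acid hydroxylase Cyp4a12a at 0.0641 (2 F UMIs) and Cyp2c54 at 0.0742 (1 F UMI). Of 14 bile acid genes 8 fell and 1 rose, with a median of -1.21. The one that rose was Cyp7a1, the rate-limiting enzyme of the classic pathway, at 4.17 times its Q level (2.46 to 6.82, 22 F UMIs in 5 of 13 droplets). At 0.398 in Q it was tested through its F level alone. Of the 5 bile acid genes at 1 or more in both libraries 3 fell and 0 rose. Downstream and alternative enzymes were low: Cyp8b1 at 0.0731 (2 F UMIs), Cyp7b1 at 0.0629 (1 F UMI) and Cyp27a1 at 0.421. Among transporters the bile salt export pump Abcb11 fell to 0.297 (0.165 to 0.493) and the uptake carrier Slc10a1 to 0.444 (0.290 to 0.650).

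Glutathione transferases couple reactive compounds to glutathione. Gstm1 stood at 0 at the lowest, 10.9 at the median and 92.3 at the highest of the 125 Q droplets and at 21.2, 70.8 and 192 in the 13 F droplets. Its ratio was 7.94 (7.46 to 8.46), every F droplet lay above the Q median, and the ratio without the deepest F droplet was 6.38. Gstp1 was 23.9 times higher, and 27.4 times (20.9 to 36.4) against the 125 Q droplets. For all members the ratios were 44.1 (32.8 to 60.0) for Gstm3 and 215 (120 to 422) for Gsta1. These 3 were named for their size, among the 12 highest ratios of genes whose ratio differed at least 2-fold from that in lymphoid cells, and at 0.666 (Gstp1), 0.336 (Gstm3) and 0.0683 (Gsta1) in Q they were tested through their F level alone. The deepest droplet held 49.8%, 52.6% and 75.8% of their F UMIs, and without it the ratios were 15.9, 27.7 and 68.8. Gsta1 UMIs were found in 7 F droplets, all among the 7 deepest. Of the 21 conjugation and transport genes tested 6 rose and 6 fell, where 34.9% of all genes rose and 14.6% fell. Of the 17 in this list at 1 or more in both libraries 5 rose and 3 fell. Alcohol dehydrogenase Adh1 (2.69), the retinal dehydrogenase Aldh1a1 (2.73) and the flavin monooxygenase Fmo5 (2.64) were among the 6 that rose. The carboxylesterases Ces1c and Ces3a and the methyltransferase Nnmt were among the 6 that fell. Members of the Gst, Ces and Ugt families share sequence, and single values may be mixed.

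In the stress and antioxidant list 9 of 15 tested genes rose and 3 fell, with a median of 1.44. Among these, 5 of the 9 passed the limit of 1 per 10000 only through F, and of the 9 at 1 or more in both libraries 4 rose and 2 fell. Next to the transferases these were both subunits of the enzyme that limits glutathione synthesis, Gclc (2.71, 2.19 to 3.32) and Gclm (3.53, 2.83 to 4.38), thioredoxin reductase Txnrd1 (3.28, 2.23 to 4.70), sulfiredoxin Srxn1 (41.1, 24.5 to 71.9, and 24.6 without the deepest F droplet), the carbonyl reductase Cbr3 (88.5, 26.2 to 465, on 3 Q UMIs) and metallothionein Mt2 (2.57). Jun, Egr1 and the heat shock gene Hspa1a, immediate responders to cell handling, fell. Without the deepest F droplet 7 of 15 rose, since Gclc was then at 1.35 and Mt2 at 1.98. Without members under 1% mitochondrial UMIs 7 of 15 rose too, and the median was 0.79 where that of all genes was 0.59. The sequence TGACNNNGC, a core to which the antioxidant regulator NRF2 can bind, lay in 2 of 18 windows of this list and in 10.2% of all windows. Of 10 iron and copper genes tested 2 rose and 3 fell, with a median of -0.35. All 3 that fell were tested through their Q level alone and had to lie lower in F. Of the 7 at 1 or more in both libraries 2 rose and 0 fell. The 2 that rose were the ferritin chains. Fth1 ran from 5.50 over 18.1 to 103 in the Q droplets and from 24.2 over 77.9 to 220 in F, a ratio of 4.84 (4.56 to 5.12), and Ftl1 was at 4.27 (4.02 to 4.53). The deepest droplet held 45.1% and 52.2% of these UMIs, and without it the ratios were 3.51 and 2.70. The hormone hepcidin, Hamp, was at 1.12 (0.978 to 1.28), and the iron exporter Slc40a1 fell to 0.274 (0.0996 to 0.603). Slc40a1 is also a macrophage gene, at 2.73 in F lymphoid cells against 0.453 in F members.

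**Figure D5:**
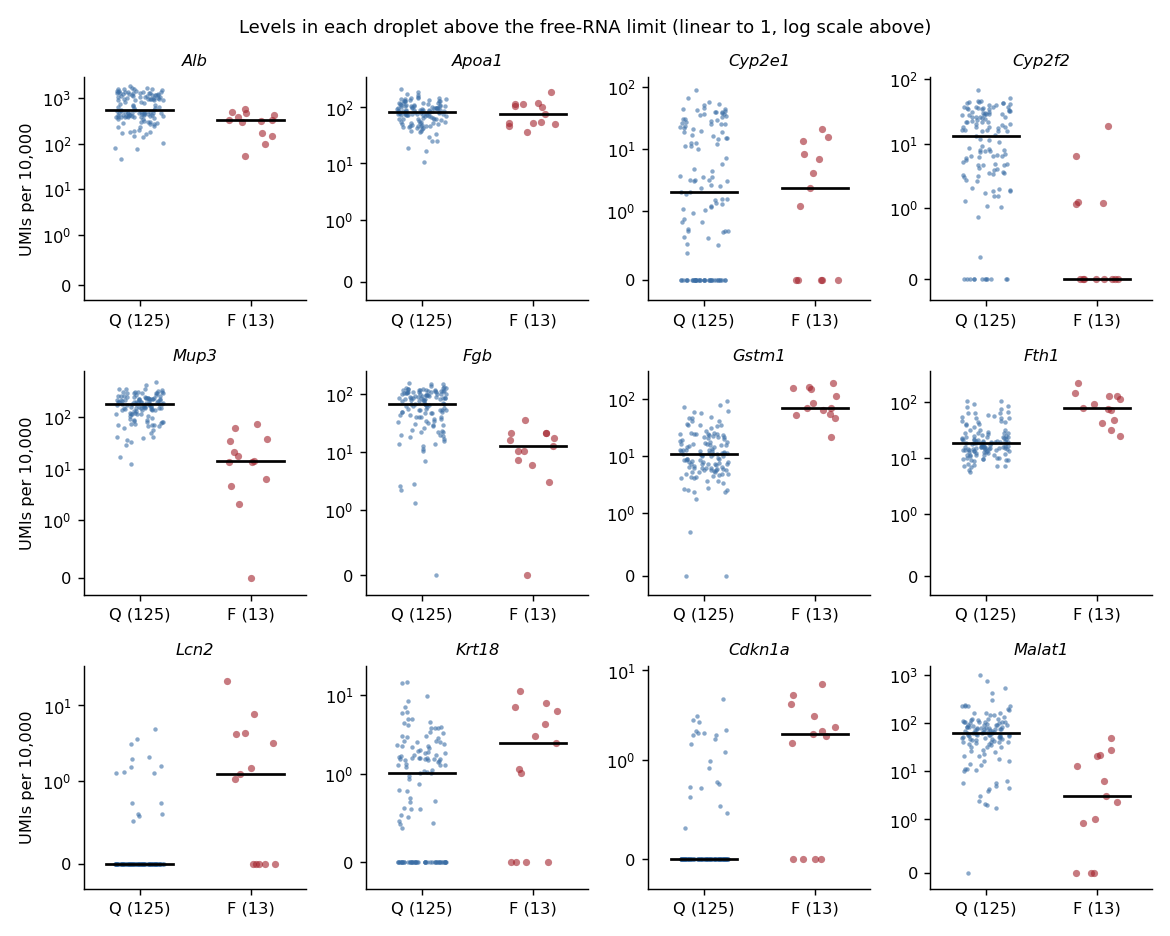
UMIs per 10000 (y axis, linear up to 1 and log scale above) of 12 genes in each Q droplet above the free-RNA limit (125) and each F droplet (13), with bars at the medians. The 2 libraries overlap for all 12 genes, with all 13 F droplets above the Q median for Gstm1 (10.9) and Fth1 (18.1) and below it for Mup3 (177), Fgb (66.3) and Malat1 (62.9).

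Acute phase genes, which the liver makes in inflammation, went both ways: 5 of 22 tested rose and 7 fell, with a median of -0.21. Among all genes tested 34.9% rose and 14.6% fell. Of the 5 acute phase genes that rose, Lcn2 and Saa2 were tested through their F level alone. Of the 18 acute phase genes at 1 or more in both libraries 3 rose and 5 fell. Lipocalin 2, Lcn2, was 17.4 times higher on 46 F and 35 Q UMIs, at 0, 1.22 and 21.2 (lowest, median, highest) in F droplets against 0, 0 and 4.82 in the 125 Q droplets. The serum amyloid genes Saa1 (3.76, 2.89 to 4.86) and Saa2 (8.21, 5.19 to 12.8), which share sequence, also rose. In contrast all 3 fibrinogen chains fell: Fga to 0.261 (0.217 to 0.311), Fgb to 0.193 (0.164 to 0.226) and Fgg to 0.224 (0.187 to 0.266). Haptoglobin, Hp, stood at 1.05 (0.923 to 1.19) and the metallothionein Mt1 at 0.851 (0.613 to 1.16).

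Of 26 genes tied to hepatocyte injury and reprogramming 13 were tested, 12 of which rose in F and 1 fell (Gdf15), with a median of 2.11. Neither is a measure of the whole list, since 8 of the 12 passed the limit of 1 per 10000 only through F and so had to lie higher there. Of the 4 at 1 or more in both libraries 4 rose, where 22.4% of all such genes did. The keratins Krt8 and Krt18, which stiffen the cytoskeleton of simple epithelia, were 3.02 (2.35 to 3.83) and 3.49 (2.62 to 4.61) times higher. Krt18 was highest, at 11.1 per 10000, in the deepest F droplet, which weighs most in its summed level. The cell cycle inhibitor Cdkn1a was 7.81 times higher (4.80 to 12.5), with 0, 1.97 and 7.08 in F droplets and 0, 0 and 4.82 in Q droplets, and F lymphoid cells had 1.18 against 2.27 in F members. Several others are also genes of non-parenchymal cells, and their levels in F droplets were close to those in F lymphoid cells: Anxa2 at 2.11 against 2.65, Spp1 at 3.32 against 2.77, Ly6d at 3.62 against 4.30 and Cd63 at 1.36 against 1.13. The part of free RNA in these 4 was not tested. Krt8 (6.42 against 0.285) and Krt18 (4.91 against 0.168) lay far above it. Of the bile duct genes in the list, Krt19 and Sox9 had 0 UMIs in F. Epcam, also a bile duct gene, was 1 of the 4 genes limited by the rule, so droplets rich in it could not be members. Without the deepest F droplet 11 of 12 tested genes of the list rose, and without members under 1% mitochondrial UMIs 7 of 11 did.

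Afp was read in 3 of the 13 F droplets, with 29 UMIs, while 1 UMI was counted in all 500 Q members and 0 in the 125 above the free-RNA limit. The ratio over all members was 385, with an interval from 63.8 to 15721 that shows how little 1 UMI fixes it. Against the 125 droplets F was at least 69.0-fold higher by the exact interval, and at 90.5 times the level of a floor of 3 UMIs. Levels in the 3 F droplets were 8.39, 58.3 and 21.2 per 10000, and their totals were 4768, 3776 and 1412 UMIs. Clusterin, Clu, a secreted chaperone, stood in these 3 at 21.0, 111 and 70.8, the latter 2 the highest of the 13, and in the other 10 at 32.8 or less. All 3 had under 1% mitochondrial UMIs, and in the 8 F droplets above that share 0 Afp UMIs were found.

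Cell cycle genes were sparse, with only 3 of 15 tested, all 3 through their F level alone: Mki67 (11.2, 6.07 to 20.6, 22 F UMIs, at 1.66 in F members and 1.28 in F lymphoid cells), Ccnd1 (2.77, at 1.89 in F members and 1.84 in F lymphoid cells) and the mitotic regulator Birc5 (22.1, 11.9 to 42.1, 30 F UMIs in 8 droplets). Cdkn3, a phosphatase of cell cycle kinases, and Cdca3, which triggers mitotic entry, were among the same 12 highest ratios. In F they had 31 and 46 UMIs in 8 and 9 droplets, and in the 125 Q droplets 0, which puts F at least 74.1-fold and 112-fold higher by the exact interval (96.8 and 144 times the floor). Over all members the ratios were 411 (68.6 to 16770, on 1 Q UMI) and 50.9 (26.5 to 106), and F lymphoid cells had 0.0647 and 0.388 against 2.34 and 3.47 in F members. Topoisomerase Top2a had 0 UMIs in F. The tubulin gene Tubb6 (35.4, 15.9 to 86.5) and Tsku, a secreted protein (16.1, 8.37 to 31.2), complete them, on 24 and 23 F UMIs.

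Of 12 glucose and glycogen genes tested 4 rose and 3 fell (median 0.25), and of 13 lipid genes that the rule did not use 3 rose and 2 fell (median -0.20), shares of risers no higher than the 34.9% of all genes. Glycogen synthase, Gys2, rose 2.87-fold (1.65 to 4.75), while the gluconeogenic genes Pck1, G6pc (0.400, 0.278 to 0.556) and Sds (0.0521, 2 F UMIs) fell. In lipid synthesis fatty acid synthase, Fasn, rose 3.09-fold (2.31 to 4.09) and ATP citrate lyase, Acly, 2.58-fold (1.96 to 3.35), and Scd1 was at 0.576 (0.537 to 0.617). Of 11 apolipoprotein genes that the rule did not use 2 rose (Apoa4 and Apom) and 4 fell, Apoa5 to 0.133 (0.0911 to 0.189) and Apob, the scaffold of VLDL, to 0.358 (0.307 to 0.416) among them. The liver factors Hnf4a and Cebpa were at 0.788 (0.468 to 1.25) and 0.453 (0.215 to 0.845), and 12 of the 18 transcription factors were too low to be tested.

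Signs of RNA quality differed along with the above. Of the 13 F droplets 5 had under 1% mitochondrial UMIs (38.5%, 13.9 to 68.4), against 1 of 125 Q droplets above the limit (0.800%, 0.0203 to 4.38) and 29 of 6132 kept F droplets (0.473%). Malat1, a nuclear RNA, stood at 0, 62.9 and 992 (lowest, median, highest) in the Q droplets and at 0, 3.05 and 48.5 in F, a ratio of 0.143 (0.121 to 0.167). Every F droplet lay below the Q median, and F lymphoid cells had 137. Neat1, also nuclear, was at 0.138 (0.0972 to 0.191). The part of damaged or incomplete cells in the differences above was not tested. F totals ran from 936 over 4768 to 32320 UMIs, and the deepest droplet, with 0.476% mitochondrial UMIs, was also the lowest for Alb (53.2) and the highest for Gstm1 (192), Fth1 (220) and Krt18 (11.1). The highest rule-gene level in F was 978 per 10000, while 61 Q members reached 1000 or more.

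Free RNA gives a second readout of hepatocyte transcripts, blended over all cells that leaked. Over 85 hepatocyte genes with at least 20 UMIs in each group, the log2 ratios of F over Q in droplets above the limit and in lymphoid cells correlated at r = 0.411 (Spearman 0.354), given as a description across genes of the same libraries. The median log2 ratios were -0.39 and -2.17. In lymphoid cells Mup3 was at 0.0358 of Q, low in both readouts. Alb was at 0.133 there, and its level in members is bound by the rule. Gstm1 was at 1.56 there, and Gstp1, high in F members, at 0.448. A smaller number of leaking hepatocytes and less RNA in each cannot be told apart in these values.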

How the data were processed

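Livers were digested, hepatocytes and debris depleted by centrifugation, and the remaining cells loaded for 10x Genomics 3′ single-cell RNA sequencing, 1 library each for Q and F. The authors deposited UMI counts per gene and barcode, not normalized, and the submitters' processing notes name Cell Ranger 3.0.1 and mm10. From the deposited counts, barcodes with under 10% mitochondrial UMIs and over 200 genes were kept and members found by the stated rule. Members and gene lists were chosen with earlier results of these data known, and the free-RNA limit and zonation classes after the values were seen. Lymphoid cells were other kept droplets with at least 3 UMIs of Cd79a, Cd79b and Ms4a1 or of Cd3e, Cd3d, Cd3g and Nkg7, at most 2 of Cd5l, C1qa and Csf1r, and the same endothelial and haemoglobin limits. Counts were summed over droplets and given per 10000 UMIs with exact Poisson intervals; ratios have exact conditional and shares Clopper-Pearson 95% intervals, for counting error only. Genes at 1 per 10000 or more in either library were compared, and at least 2 or at most 0.5 times counted as a rise or fall. Named genes were the 10 most abundant of each library, the 12 highest and 12 lowest ratios among genes with at least 20 UMIs where higher and a log2 ratio at least 1 away from that in lymphoid cells (mitochondrial, ribosomal protein, haemoglobin and predicted genes left out), and genes of the lists. With 1 library per group no test was possible. Depth per kept droplet limits what single droplets show. Scrublet marked 1 of 7471 and 1 of 6132 droplets and was not used to remove any. On simulated data with counting error only, 50 of 50 genes were recovered at each of 4 folds (3, 4, 0.333 and 0.25). These changed genes were at 4 or more per 10000 in Q. Of unchanged genes 39 of 1134 (3.44%) passed the limit, and intervals covered 95.1% of 1334 true values. Spread between droplets was not simulated, so these rates do not cover it. Gene coordinates and promoters came from RefSeq (GRCm38.p6), which matched 420 of 420 listed genes. Python 3.11.15, numpy 2.4.6, pandas 2.3.3, scipy 1.17.1, scanpy 1.11.5 and matplotlib 3.10.9 were used. Alternatives changed the mitochondrial, hepatocyte and endothelial limits, the doublet scores, the low-value limit, the averaging and the lymphoid reference. Values of some listed genes are not reported here.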

Additional observations from a re-analysis of the deposited data

How the results depend on the processing

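No paired analysis was possible because each group is 1 sample. The limits are 1 mouse per group, 13 F droplets, and free RNA that differs between the libraries. No F droplet (0) met a hepatocyte gene limit of 1000 or 2000, so these give an F share of 0% and no ratio, and Q shares of 0.816% and 0.0402% against 6.69%. A mitochondrial limit of 5% gave a Q share of 9.39% and an endothelial limit of 10 gave 4.87%. The Cyp2e1 ratio of 0.452 was 0.711 as a mean over droplets, 0.520 without the deepest 5% of members and 0.292 divided by the median gene. The hepatocyte list ratio of 0.650 was 0.705 at 5% mitochondrial UMIs, 0.617 at the endothelial limit of 10, 0.888 as a mean over droplets, 0.770 without the deepest 5% of members, 0.620 outside the rule genes, 0.561 above the free-RNA limit (a limit set on these same genes), 0.692 without the deepest F droplet and 0.714 without members under 1% mitochondrial UMIs. The pericentral over periportal ratio of F (1.04) was 2.15 at 5% mitochondrial UMIs, 0.719 without the deepest members or the deepest F droplet and 0.611 without members under 1%, so whether it lies above 1 depends on these choices. In Q (0.396) it was 0.782 at 5%, 0.186 and 0.0596 at hepatocyte limits of 1000 and 2000, 0.380 as a mean and 0.344 without Glul. Genes higher in F (642) numbered 105 and 2104 at low-value limits of 5 and 0.1, and 229 when divided by the median gene. Genes lower (269) numbered 70, 1765 and 446. Free RNA in F (129) was 125 without the highest 5% of cells, 139 at 5% mitochondrial UMIs, 143 as a mean over cells and 144 with a macrophage limit that omits C1qa (478 cells instead of 262). In Q (429) it was 404, 264, 556 and 425 in turn, 431 without high doublet scores and 419 with at least 5 marker UMIs. The changes above the limit, without the deepest F droplet, without members under 1%, without Glul and without C1qa were chosen after seeing the data. Afp was at 0 without members under 1% mitochondrial UMIs. Over 24 named genes, 220 of 258 values stayed within their interval, 37 moved beyond it and 1 reversed, while 6 more ratios (of Afp, Cdkn3 and Cdca3) had 0 UMIs in Q and no value. The cause of these changes was not tested.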
